A study of Mus musculus with 14 samples.

Results

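The nuclear factor I (NFI) family was followed through the *Atoh1* lineage of the mouse hindbrain. Its members were taken by name as *Nfia*, *Nfib*, *Nfic* and *Nfix*, which are 4 of the 31054 genes counted, and each was found once. NFI proteins bind DNA as dimers at paired TTGGC sites and can activate or repress transcription. In the developing nervous system they are known for moving stem cells and young neurons from early to late programs: NFIA and NFIB promote the switch to glia, NFIX restrains the division of neural stem cells, and several members regulate the maturation and axon growth of cerebellar granule neurons. NFIB has also been tied to the formation of the pontine nuclei (PN), the relay of cortical input to the cerebellum.

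The data were single-cell unique molecular identifier (UMI) counts of sorted TdTomato-positive cells in 14 libraries. Control embryos were *Atoh1*Cre/+; *Rosa*lsl-tdTomato/+ and mutant embryos, named Atoh1S193A/-, were *Atoh1*Cre/S193A; *Rosa*lsl-tdTomato/+, in which S193A is a hypomorphic allele with a serine of the ATOH1 protein replaced by alanine. Whole hindbrains of 3 control and 3 mutant embryos were taken at E14.5 and again at E18.5, with 1 embryo per library and a littermate of each genotype sharing a replicate number. By the paper's sample list, controls 1 to 3 were female, male and female at E14.5 and male, male and female at E18.5. Mutants had the sex of their littermate, except E14.5 mutant 1, which was male. The P5 pools were of mixed sex. At P5 there were 2 libraries, each of microdissected PN from pooled control pups. Cre replaces the coding sequence of 1 *Atoh1* copy in every animal, so controls carried 1 functional copy too, and the reporter marks any cell with a history of *Atoh1* expression.

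Libraries held 108239001 to 236964126 UMIs, and 80256 cells were kept, of which 34427 were from E14.5, 31823 from E18.5 and 14006 from P5. Pontine clusters, called PN-like because they were rebuilt here from markers, held 7431, 3245 and 8092 of these cells, and none of the 6 PN markers was under 5 CPM in their neurons. No 2 libraries shared more than 67 cell barcodes, and no pair shared more than 0.624% of the barcodes of its smaller library. Both E14.5 libraries of litter 2 stood apart: PN-like cells made up 15.9% of the control and 15.2% of the mutant library, against 22.8% to 27.8% in the other 4, and the tests between genotypes and between stages in which they take part were repeated without them, whereas the E14.5 levels by state and cluster include them. *Atoh1*, the targeted gene, was at 45.8 to 89.0 CPM over all barcodes in E14.5 controls and 80.6 to 110.4 in mutants, at 27.3 to 35.4 and 30.2 to 54.7 at E18.5, and at 2.31 and 3.66 at P5, but the S193A allele is still transcribed, so these levels do not check the labels. The file headers name Cell Ranger 3.1.0 for E14.5 controls 1 and 2, and 5.0.1 for all other libraries. Levels below are UMIs per 1000000 UMIs (CPM) of the cells named, summed per library. RNA of WPRE, a sequence of the reporter, was uneven over the E14.5 control clusters, from 22.5 to 542 CPM. It was at 33.3 CPM in the inhibitory neuron-like cluster 30 and at 25.7 in the astrocyte or radial glia-like cluster 23. Whether cells low in WPRE belong to the *Atoh1* lineage was not tested, and WPRE was not read by cluster at E18.5 or P5. Because the kit reads only the 3′ end of a transcript, levels are compared between cells for each gene and not between genes.

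The 4 genes lie on 3 chromosomes in GRCm38 with GENCODE M21 annotation. *Nfia* spans chr4:97772734-98118874 on the plus strand and *Nfib* chr4:82290173-82705750 on the minus strand, whereas *Nfic* spans chr10:81396186-81455635 and *Nfix* chr8:84699876-84800344, both on the minus strand. Each overlaps other annotated genes. Overlapping on the opposite strand are *E130114P18Rik* at *Nfia*, 4 genes at *Nfib*, *Gm16104* at *Nfic*, and *Lyl1* and *G430095P16Rik* at *Nfix*. RefSeq promoter windows (GRCm38.p6; 250 bases before to 50 after a start) were held for 3 members, as 1 window for *Nfia*, 1 for *Nfic* and 4 for *Nfix*. The motifs searched on both strands were the E-boxes CAGATG and CAGCTG, of the kind bound by proneural factors such as ATOH1, and the NFI site TTGGC. Of 32851 windows in all, 17.2% held CAGATG, 16.3% CAGCTG and 46.7% TTGGC, while the full palindrome, TTGGC and GCCAA with a gap of 5 bases, which also counts under TTGGC, was in 0.0365% and in no window of a member. The windows printed are those of the members that held CAGATG, with the matched letters in capitals. The first lies upstream of the *Nfia* span given above and holds 2 matches to CAGATG or its reverse complement.

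*Nfia*, chr4:97581693-97581992, plus strand: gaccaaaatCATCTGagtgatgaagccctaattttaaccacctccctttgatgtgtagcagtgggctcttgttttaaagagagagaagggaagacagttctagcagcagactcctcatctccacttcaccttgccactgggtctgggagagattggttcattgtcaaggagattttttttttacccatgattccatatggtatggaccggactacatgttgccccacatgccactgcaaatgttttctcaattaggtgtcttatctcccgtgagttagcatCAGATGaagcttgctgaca

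The other belongs to *Nfix* and holds 1 match to CAGATG and 2 to TTGGC.

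*Nfix*, chr8:84772826-84773125, minus strand: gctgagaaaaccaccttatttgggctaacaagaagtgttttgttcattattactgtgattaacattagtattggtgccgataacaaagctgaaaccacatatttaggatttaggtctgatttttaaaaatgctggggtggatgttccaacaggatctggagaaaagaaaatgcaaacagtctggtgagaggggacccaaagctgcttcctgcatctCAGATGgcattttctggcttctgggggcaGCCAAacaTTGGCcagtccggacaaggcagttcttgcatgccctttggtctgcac

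Of the other windows, that of *Nfix* at chr8:84775779-84776078 held 1 CAGCTG and 1 TTGGC, and that at chr8:84773361-84773660 held 1 TTGGC. None of these motifs was in the *Nfic* window or in the remaining *Nfix* window. These matches describe the letters only.

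In all sorted control cells, every member was at a higher level at E18.5 than at E14.5. *Nfia* was at 275.9, 178.0 and 247.9 CPM in E14.5 controls 1 to 3 and at 601.4, 542.3 and 527.4 in the E18.5 controls. *Nfib* was at 1203.0, 889.0 and 968.6 CPM at E14.5 and at 1622.6, 1687.4 and 1701.2 at E18.5. *Nfic*, best known for its role in tooth root formation, was at 42.4, 29.5 and 33.2 CPM at E14.5 and at 90.8, 89.6 and 78.2 at E18.5. No E14.5 control reached the lowest E18.5 control for any of these genes, and the same held for *Nfix*. *Nfix* was at 268.3, 141.0 and 245.1 CPM at E14.5 and at 665.2, 669.0 and 673.8 at E18.5. The 2 P5 libraries were at 301.1 and 350.2 CPM for *Nfia*, 1189.7 and 1173.5 for *Nfib*, 45.9 and 47.4 for *Nfic*, and 805.6 and 891.7 for *Nfix*. *Nfix* in the P5 libraries lay above all E18.5 controls, and the other members lay below them. The tissue differs, however: PN-like cells were on average 58.0% of cells in the dissected P5 PN and 11.4% in the E18.5 control hindbrains. Within PN-like neurons *Nfix* fell between these stages, as given below. In sums over all sorted cells, fewer cells of a type and less RNA per cell cannot be told apart.

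**Figure D1:**
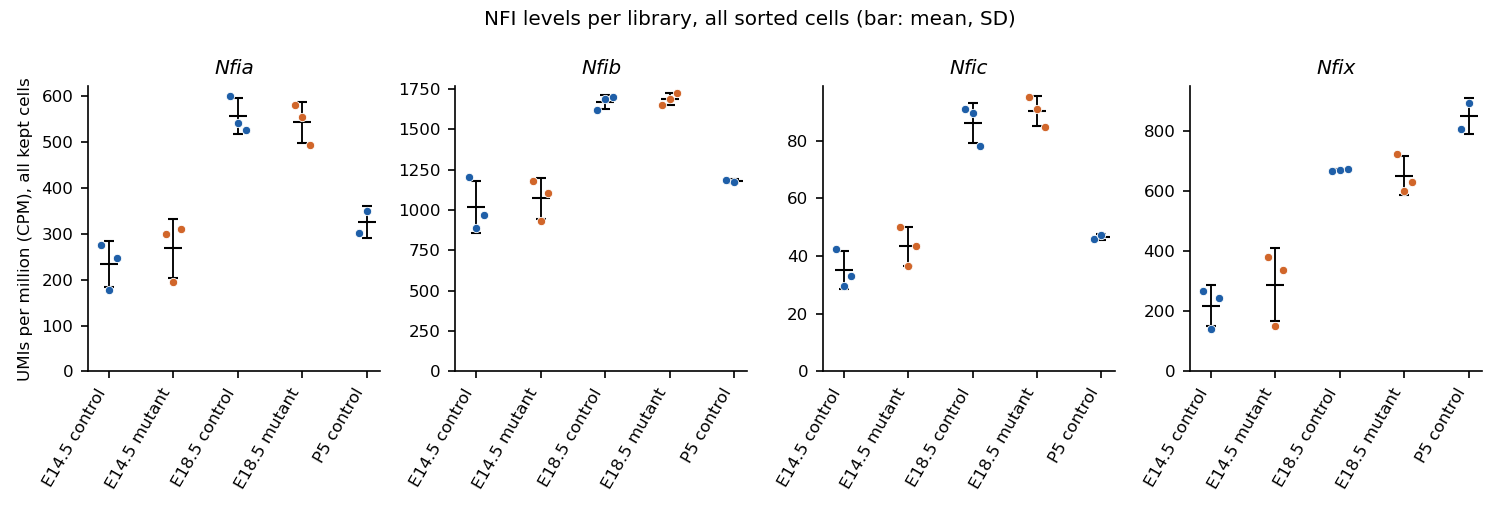
NFI levels in all sorted cells, in CPM (linear axis from 0), 1 panel per gene, for E14.5, E18.5 and P5. Points are libraries (blue control, orange mutant) and bars are the mean and SD; the E18.5 libraries sit above the E14.5 libraries in every panel, and the genotypes overlap at both stages.

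The rise was tested with edgeR's quasi-likelihood test across all genes, and a gene was called where its FDR was under 0.05 with a log2 change over 0.25 in size. All 4 members rose, by 1.17 on the log2 scale for *Nfia* (SE 0.16, FDR 0.0013), 0.63 for *Nfib* (SE 0.11, FDR 0.00365), 1.22 for *Nfic* (SE 0.13, FDR 0.000685) and 1.54 for *Nfix* (SE 0.22, FDR 0.00176). Of all 10291 genes tested, 26.5% rose and 25.1% fell, so a change between these stages was common. E14.5 control 2 was the lowest library for each member, and without it the rises were 1.00, 0.54, 1.11 and 1.30 for *Nfia*, *Nfib*, *Nfic* and *Nfix*, all still called. All 4 were called as well when mutant libraries, all made with Cell Ranger 5.0.1, replaced the controls, which was added once the data were known. The only E14.5 control of that version, control 3, was at a lower level than each E18.5 control for every member. The makeup of the cells moved too: the 11 granule progenitor markers summed to 1102 to 1850 CPM at E14.5 and 2972 to 3271 at E18.5, the 6 markers of dividing cells to 350.8 to 641.2 and 1442 to 1778, and the 7 neuron markers to 6900 to 8665 and 4682 to 5724. The 8 postmitotic granule neuron markers summed to 1244 to 1921 and 3398 to 3579 CPM, the 5 unipolar brush cell markers to 149.3 to 231.4 and 399.4 to 564.6, the 4 markers of other *Atoh1* lineages to 277.2 to 347.7 and 453.1 to 612.5, and the 7 oligodendrocyte lineage markers to 40.8 to 47.6 and 73.8 to 93.7. The PN, inhibitory, astrocyte, microglia, endothelial and red blood cell sums overlapped. The part of these lists in the rises was not tested. Stage and collection cannot be told apart.

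Within the developing PN, the members followed different courses from progenitor to neuron. At E14.5, progenitor-like cells had 503.8 ± 36.3 CPM of *Nfia* (SD over the control libraries, n = 3), compared with 459.3 ± 43.4 in intermediate progenitor-like cells, 471.4 ± 43.2 in migrating neuron-2-like cells and 263.1 ± 28 in differentiated neuron-like cells. The first 3 of these states overlapped, and the differentiated neurons lay below them in each library. *Nfib* took another order, with 1635 ± 321 CPM in progenitor-like and 1376 ± 167 in intermediate progenitor-like cells, which overlapped, and 3529 ± 367 in migrating neuron-2-like cells. Differentiated neuron-like cells were at 2725 ± 510 CPM of *Nfib*, overlapping the migrating state. *Nfic* was lower at each step of this order, at 71.98 ± 11.9, 53.51 ± 8.47, 32.29 ± 3.28 and 18.69 ± 2.56 CPM, with no overlap between any of these neighbours. *Nfix* was at 752.6 ± 63.4, 625.5 ± 108, 751.6 ± 243 and 401.3 ± 38.5 CPM, and only the differentiated state lay below all the others. Migrating neuron-1-like cells had at least 10 cells in 1 library per genotype, both of litter 2, with 558.3 CPM of *Nfia*, 2058 of *Nfib*, 48.96 of *Nfic* and 441 of *Nfix* in that control. Groups of 607 and 523 PN-like cells also scored best for this state. They were left unnamed because another state had more markers among their leading genes. Unnamed PN-like cells reached 10 in all 3 control libraries, so the limit of this state to litter 2 may depend on the naming. Cell states were set against each other as a description with no test, since the clusters come from the same cells.

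At E18.5, migrating neuron-like cells had the highest control level of every member among the PN-like states with at least 10 cells in 3 libraries, and the order of the neurons differed between members. *Nfia* was at 1057 ± 74.1 CPM in migrating, 589.2 ± 65.2 in ePN1-like, 457.3 ± 60.2 in ePN2-like and 406.2 ± 23 in ePN3-like cells, where ePN names the embryonic PN neuron subtypes. The lowest ePN1 library, at 523.9 CPM, lay just above the highest ePN2 library, at 522.8, and ePN2 and ePN3 overlapped. *Nfib* was at 5791 ± 377, 3210 ± 195, 3635 ± 155 and 2374 ± 211 CPM in the same order, so ePN2 lay above ePN1. For *Nfic* the values were 82.79 ± 7.06, 54.91 ± 10.1, 28.54 ± 2.11 and 31.58 ± 1.59 CPM, with ePN2 and ePN3 overlapping. For *Nfix* they were 3048 ± 159, 1661 ± 59.1, 1728 ± 185 and 1272 ± 97.5 CPM, with ePN1 and ePN2 overlapping. Relative to the ePN-like neurons as 1 pool, migrating cells held 2.29 times the *Nfia*, 1.94 times the *Nfib*, 2.33 times the *Nfic* and 2.04 times the *Nfix*. ePN4-like cells reached 10 in 1 control library, at 363.2 CPM of *Nfia*, 1898 of *Nfib*, 24.09 of *Nfic* and 718.9 of *Nfix*. Intermediate progenitor-like cells reached it in 2 control libraries and had 1111 ± 18.54 CPM of *Nfia*, 2822 ± 155 of *Nfib*, 141.3 ± 59 of *Nfic* and 1734 ± 47.5 of *Nfix*.

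**Figure D2:**
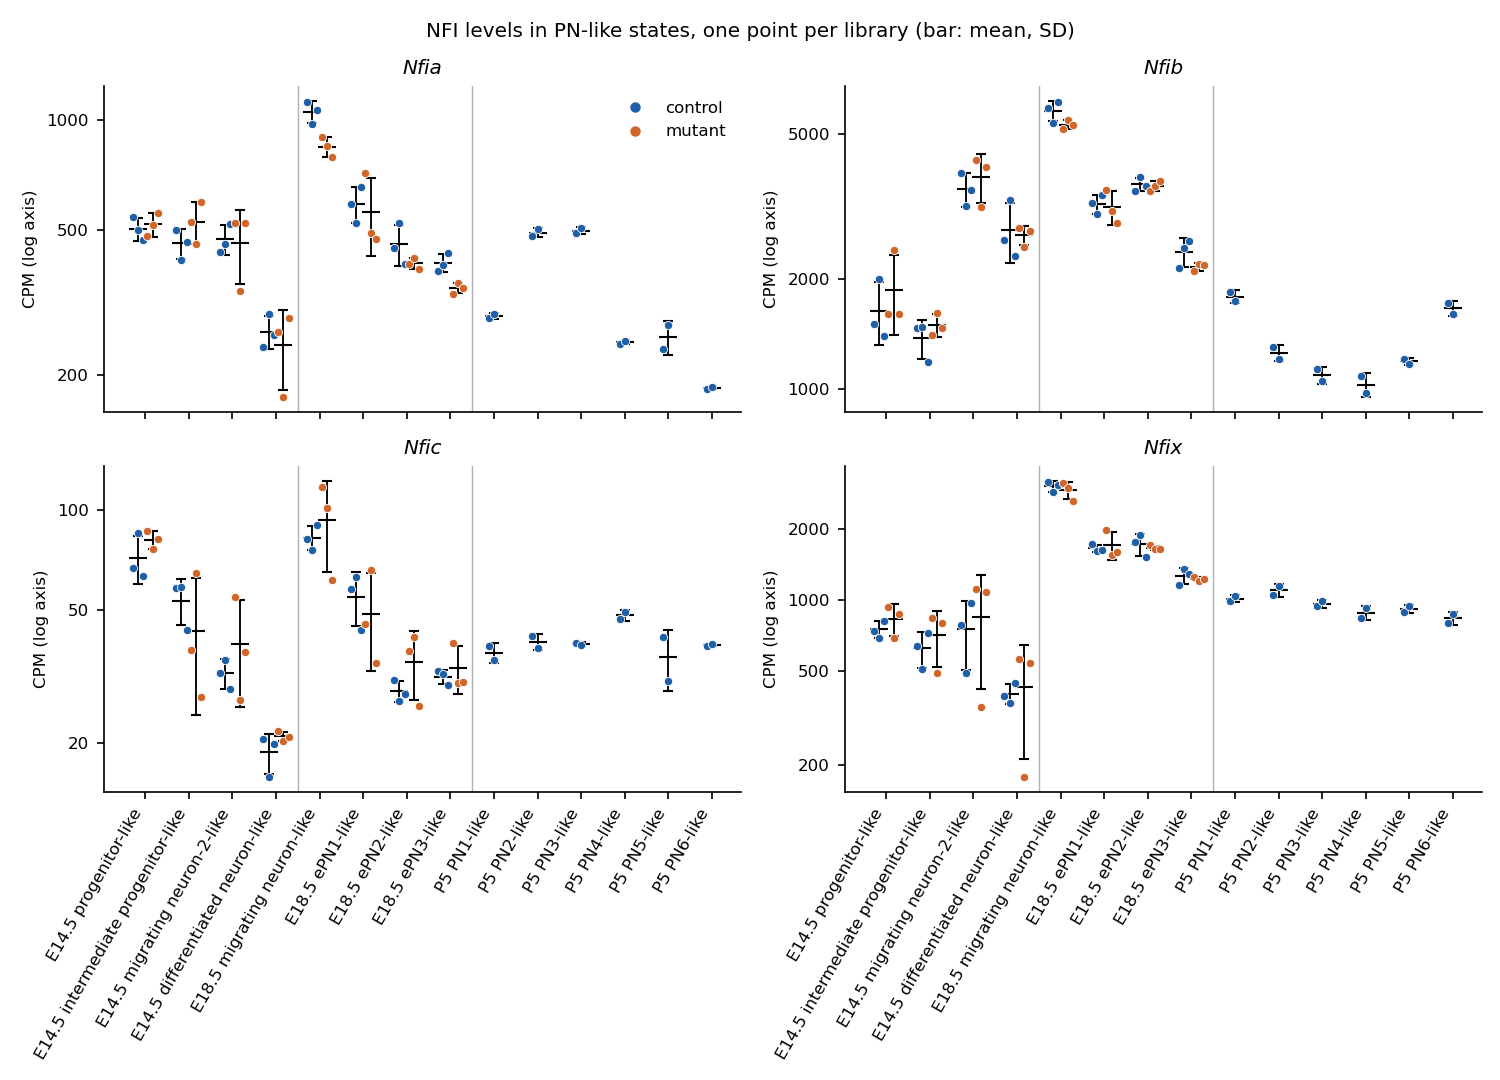
NFI levels in 14 PN-like states, in CPM on a log axis, 1 panel per gene, with E14.5, E18.5 and P5 states from left to right. Points are libraries with at least 10 cells (blue control, orange mutant) and bars are the mean and SD; *Nfib* and *Nfix* stand highest in migrating neuron-like cells at E18.5, at 5791 and 3048 CPM in controls, and *Nfia* splits the P5 subtypes.

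The 2 P5 libraries gave levels for the 6 mature PN subtypes, and these separated *Nfia* from *Nfib*. *Nfia* was at 489.4 and 505.4 CPM in PN3-like and at 481.5 and 502.2 in PN2-like cells, which overlapped. PN1-like cells were next, at 286.4 and 293.9 CPM, followed by PN5-like cells at 235.5 and 273.7 and PN4-like cells at 243.8 and 247.8. PN6-like cells had the lowest *Nfia*, 183.3 and 184.9 CPM, and PN3 held 2.70 times as much as PN6. *Nfib* was highest in PN1-like cells, at 1790 ± 71.9 CPM (SD, n = 2), and next in PN6-like cells, at 1662.5 ± 76.9. The remaining 4 subtypes were at 1026 to 1255 CPM of *Nfib*, so PN6 was lowest for *Nfia* and among the highest for *Nfib*. *Nfix* spread less, from 840.3 ± 52.6 CPM in PN6-like to 1101 ± 66 in PN2-like cells. *Nfic* ran from 36.13 ± 7.62 CPM in PN5-like to 48.28 ± 1.7 in PN4-like cells.

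Non-neuronal cells in the P5 PN differed from the neurons by member. *Nfib* was at 1337 ± 80.4 CPM in the pooled PN1- to PN6-like neurons, 566.9 ± 68.5 in astrocyte or radial glia-like cells, 185.4 ± 25.3 in oligodendrocyte lineage-like cells and 69.71 ± 36.3 in microglia-like cells. *Nfix* took the same order, at 953.6 ± 46, 325.4 ± 24.1, 161 ± 15.1 and 72.92 ± 26.2 CPM. *Nfia* did not: the astrocyte class, at 495.4 ± 46.5 CPM, lay above the neurons at 336.7 ± 13.4, with 129.2 ± 8.11 in the oligodendrocyte lineage and 57.56 ± 1.57 in microglia. The oligodendrocyte lineage was itself uneven, since its *Pdgfra*-positive cluster, numbered 10, had 347.2 CPM of *Nfia* and its other 3 clusters had 31.1, 40.3 and 70.5. *Nfic* took another order, with 108.4 ± 0.883 CPM in microglia against 40.63 ± 1.22 in the neurons, 52.66 ± 8.03 in astrocytes and 32.47 ± 1.57 in the oligodendrocyte lineage. The 50 endothelial-like cells reached 10 in 1 library, with 151.9 CPM of *Nfic* and 81.89 of *Nfix*. Unipolar brush cell-like cells had 467.9 ± 25.6 CPM of *Nfia*, 651.9 ± 36.1 of *Nfib* and 607.2 ± 7.15 of *Nfix*. Granule neuron-like cells came mainly from different clusters in the 2 libraries, with 327 of 336 cells of library 1 in cluster 12 and 385 of 478 cells of library 2 in cluster 14, so their levels are given by cluster. In cluster 12 *Nfib* was at 802.4 and 789.1 CPM, *Nfia* at 572.8 and 772.9 and *Nfix* at 1115 and 1235. In cluster 14, with 9 cells in library 1, library 2 had 2361 CPM of *Nfib*, 748.5 of *Nfia* and 1432 of *Nfix*.

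**Figure D3:**
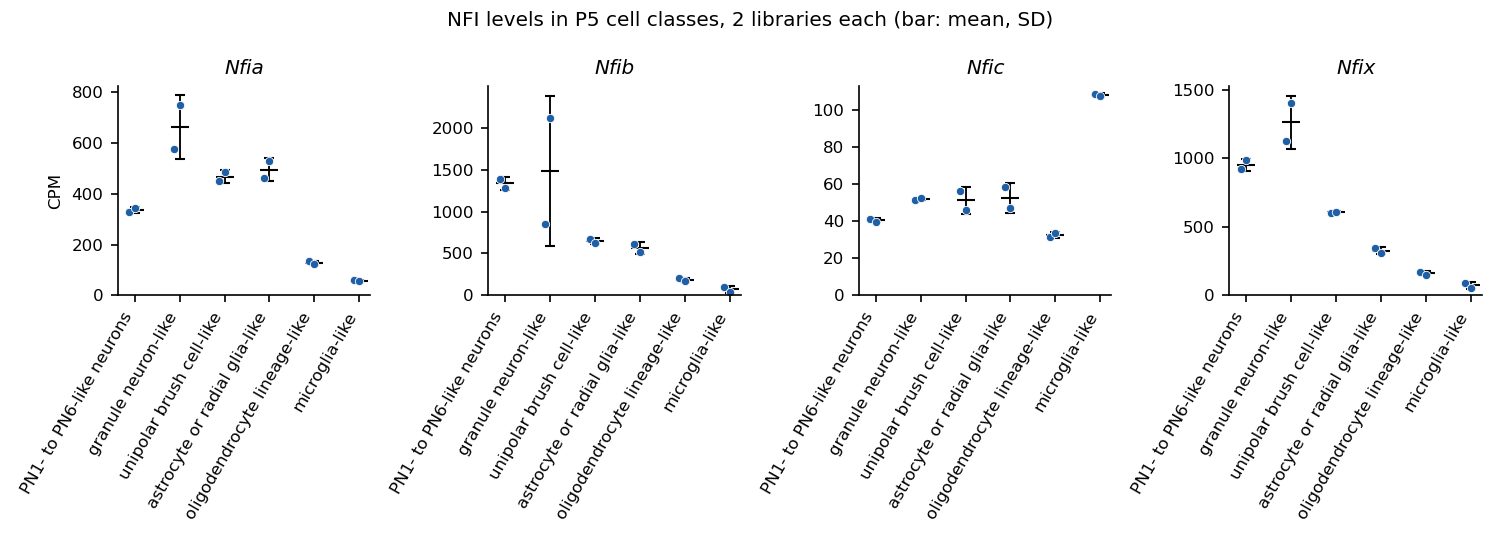
NFI levels in 6 cell classes of the P5 PN, in CPM, 1 panel per gene. Points are the 2 libraries and bars the mean and SD; endothelial-like cells, with enough cells in 1 library, are not drawn, the granule neuron-like class pools clusters that differ in *Nfib* and in their share of each library, and of the 6 classes drawn *Nfic* is highest in microglia-like cells at 108.4 CPM, where *Nfib* is lowest at 69.71 CPM.

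Levels also differed among *Atoh1*-lineage cells outside the PN. E14.5 granule progenitor-like cells had 453.2 ± 30.1 CPM of *Nfia*, 1058 ± 54.6 of *Nfib*, 93.12 ± 13.6 of *Nfic* and 210.3 ± 20.8 of *Nfix*, and granule neuron-like cells had 232.7 ± 41.2, 860.3 ± 180, 22.44 ± 6.6 and 105.2 ± 5.28. The progenitors therefore lay above the neurons for *Nfia*, *Nfic* and *Nfix* in every library, and the highest neuron library for *Nfib*, at 1032 CPM, overlapped the lowest progenitor library at 1024. At E18.5, granule progenitor-like cells had 707.6 ± 46.4, 1610 ± 75.1, 132.5 ± 2.15 and 488.4 ± 20.3 CPM, and granule neuron-like cells 466.2 ± 36.8, 1709 ± 100, 84.21 ± 6.88 and 431 ± 41.3. *Nfia* and *Nfic* were again higher in the progenitors of every library, and *Nfib* and *Nfix* overlapped.

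At E14.5 a set of clusters stood low for 3 members. Of 32 clusters with at least 10 cells in each control library, 7 had under 50 CPM of *Nfib*, a limit set after the levels had been seen. They ran from 10.7 to 36.9 CPM, and the next cluster was at 121.2. The limit was set on the mean of the control libraries. Cluster 24, counted with the others at a mean of 181.1 CPM of *Nfib*, was under 50 CPM in the controls of litters 1 and 3. Its place among the others thus rests on the control of litter 2. In the 7 clusters *Nfia* was at 1.5 to 23.5 CPM and *Nfix* at 2.77 to 7.46, against 20.6 to 537 and 2.83 to 757 in the other 25. *Nfic* did not separate the groups, at 9.24 to 28.0 CPM in the 7 and 7.46 to 93.1 in the 25. The 7 clusters held 3686 control cells, which summed to 8.91 ± 3.53 CPM of *Nfia*, 30.8 ± 2.81 of *Nfib*, 18.4 ± 2.06 of *Nfic* and 5.80 ± 3.02 of *Nfix* (SD, n = 3). *Mapt*, a microtubule gene of differentiated neurons, was at 1511 to 1719 CPM in them, against 19.96 to 1645 in the others. The transcription factor gene *Zfhx3*, of a group known to mark early-born neurons, was at 322 to 1115 CPM in them, against a median of 27.9 and a range of 8.62 to 1162 in the others. *Zfhx4* was at 66.6 to 490 CPM against 3.63 to 226, so the groups overlapped. *Onecut2*, another early factor, was at 12.3 to 841 CPM with a median of 36.1, against 3.56 to 273 with a median of 37.8. No cluster mean at E18.5 was under 50 CPM of *Nfib*. The lowest of 28 clusters there, cluster 19, had 62.1 CPM of *Nfia*, 336 of *Nfib*, 24.2 of *Nfic* and 91.6 of *Nfix*. Among its control cells with at least 5000 UMIs, thinned to that number, 54.5% held a UMI of any member. This share was 98.7% over all sorted E18.5 control cells and 15.9% to 22.5% in the 7 E14.5 clusters. Whether cells low in NFI remained within the E18.5 cluster 19 was not tested. The 7 clusters took 31.8% of the control and 29.8% of the mutant cells in litter 2 and 11.46% to 18.47% in the other E14.5 libraries, and their part in the lower sums of litter 2 was not tested.

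**Figure D4:**
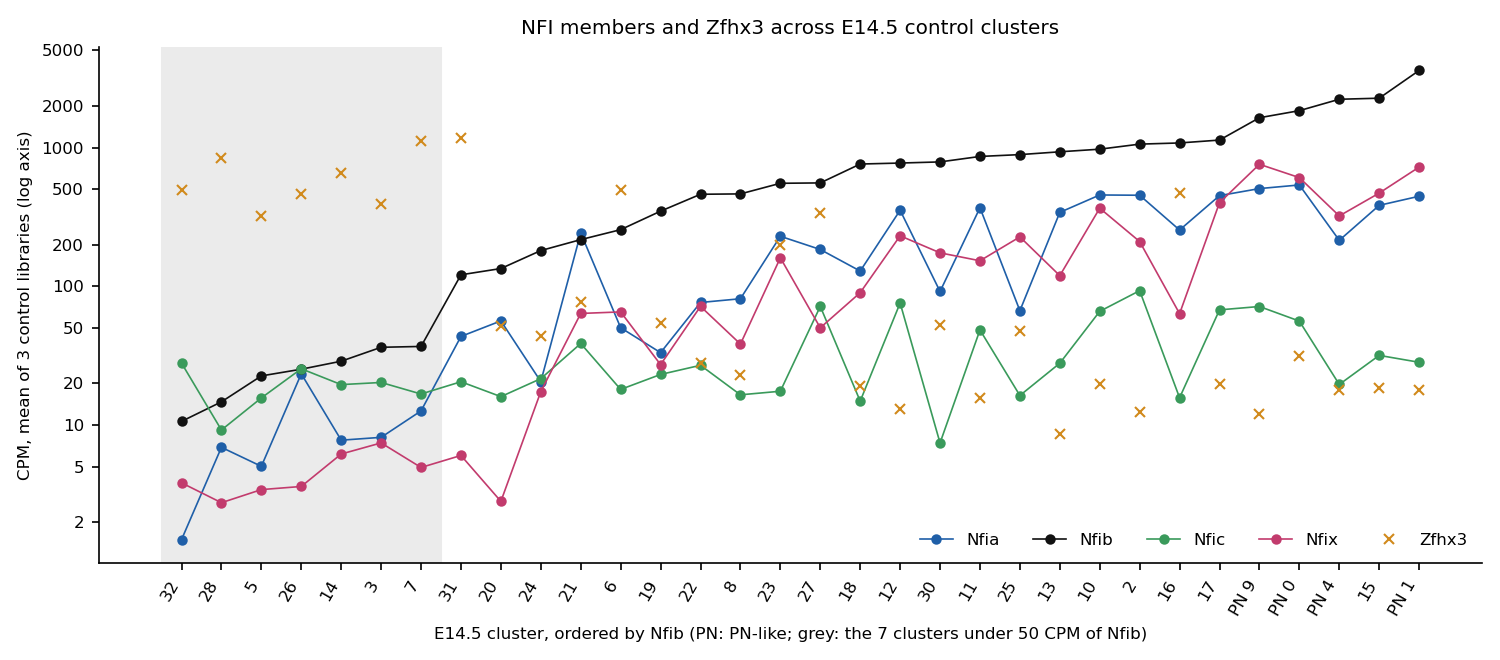
Control levels of the 4 NFI members (lines) and *Zfhx3* (crosses) in 32 E14.5 clusters, in CPM on a log axis, each the mean of 3 libraries, ordered by *Nfib*. The 7 clusters under 50 CPM of *Nfib* are shaded; *Nfia* and *Nfix* are low there and *Zfhx3* is at 322 CPM or more, while *Nfic* is not set apart; heights are not compared between genes.

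Across the 60 clusters of both embryonic stages, the log2 levels of 3 members moved together, with a Pearson r of 0.92 between *Nfia* and *Nfib*, 0.90 between *Nfia* and *Nfix* and 0.93 between *Nfib* and *Nfix*. *Nfic* followed less closely over these 60 clusters, at 0.68 with *Nfia*, 0.54 with *Nfib* and 0.62 with *Nfix*. Clusters share libraries and depth and are not replicates, so these values are descriptions. Within the 28 E18.5 clusters the first 3 values were 0.72, 0.63 and 0.74 and those of *Nfic* 0.61, 0.45 and 0.33, so there *Nfic* followed *Nfia* about as closely as *Nfix* did. *Zfhx3* ran opposite to the family over the 60 clusters, with r of -0.75 to *Nfia*, -0.75 to *Nfib*, -0.60 to *Nfic* and -0.77 to *Nfix*, and within E18.5 the values were -0.50, -0.42, -0.32 and -0.31. The other early factors were less strongly opposed over the 60 clusters, at -0.51, -0.57, -0.30 and -0.51 for *Zfhx4* and -0.39, -0.25, -0.18 and -0.35 for *Onecut2*. Within E18.5 they were -0.21, -0.31, -0.02 and -0.05 for *Zfhx4* and -0.15, 0.22, 0.14 and -0.17 for *Onecut2*, so the latter changed sign with *Nfib* and *Nfic*. *Mapt* was negative over the 60 clusters as well, at -0.58, -0.38, -0.65 and -0.42, and within E18.5 at -0.62, -0.10, -0.65 and -0.05. Of 6908 other genes with a mean of at least 20 CPM, the 3 nearest to *Nfia* were *Zic5* (0.91), *Chd7* (0.88) and *Pax6* (0.88). Those nearest to *Nfib* were *Tcf4* (0.92), *Zic5* (0.89) and *Zic2* (0.89), and those nearest to *Nfix* were *Zic5* (0.89), *Pax6* (0.89) and *Zic4* (0.88). *Nfic* was nearest to *Slc29a1* (0.84), *Scaf11* (0.84) and *Cd63* (0.83).

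To ask whether the rise between E14.5 and E18.5 occurred within 1 kind of cell, stages were compared inside matched states. In migrating PN-like neurons all 4 members rose. *Nfix* rose by 1.91 on the log2 scale (SE 0.19, FDR 6.48e-06), from 787.2, 492.3 and 975.2 CPM to 3180.1, 2871.5 and 3091.1. *Nfic* rose by 1.24 (SE 0.13, FDR 1.09e-05), *Nfia* by 1.05 (SE 0.11, FDR 9.2e-06) and *Nfib* by 0.60 (SE 0.10, FDR 0.000521). Of all genes, 21.6% rose and 20.2% fell. Without E14.5 control 2 the rises were 1.68 for *Nfix*, 1.33 for *Nfic*, 1.03 for *Nfia* and 0.54 for *Nfib*, and each stayed called. Beside this, the 5 inhibitory neuron markers summed to 4.52 to 12.8 CPM in the E14.5 libraries and to 153.8 to 209.0 at E18.5, of which *Gad1*, *Slc32a1* and *Slc6a5* were under 5 CPM at E18.5. *Gad2*, another of the 5, is also on the marker list by which the E18.5 migrating neuron-like cells were named. The 9 astrocyte or radial glia markers summed to 115.3 to 131.9 and 149.7 to 158.9 CPM, and the 6 markers of dividing cells to 12.2 to 17.9 and 34.3 to 44.5. The 6 PN markers summed to 2581 to 3055 CPM at E14.5 and 1945 to 2173 at E18.5, and the 4 markers of other *Atoh1* lineages to 207.1 to 316.2 and 89.2 to 176.9. The granule progenitor markers summed to 2283 to 2607 and 2945 to 3229 CPM, the postmitotic granule neuron markers to 2783 to 3104 and 3316 to 3647, the neuron markers to 10430 to 11110 and 9545 to 9657, and the oligodendrocyte lineage markers to 15.4 to 15.9 and 23.2 to 39.0. Their part in the rises was not tested.

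In differentiated PN-like neurons, where E14.5 differentiated neuron-like cells were set against all ePN-like cells of E18.5, 3 members rose and *Nfib* did not pass the test. *Nfix* rose by 1.79 (SE 0.10, FDR 2.52e-06), from 391.6, 368.4 and 443.7 CPM to 1478.7, 1602.7 and 1404.6. *Nfic* rose by 0.81 (SE 0.14, FDR 0.000833) and *Nfia* by 0.70 (SE 0.10, FDR 0.000367). For *Nfib* the log2 change was 0.03 (SE 0.13, 95% interval -0.26 to 0.31, FDR 0.876), at 2557.2, 3297.7 and 2319.1 CPM against 2815.9, 3058.7 and 3087.9, so the groups overlapped. It was called in another processing, at 0.39 (FDR 0.00358) with likely doublets kept. Of all genes, 28.4% rose and 27.1% fell. Without E14.5 control 2 the estimates were 1.72 for *Nfix*, 0.68 for *Nfic*, 0.78 for *Nfia* and 0.18 for *Nfib* (FDR 0.167). Over the same libraries the 5 inhibitory neuron markers summed to 6.07 to 7.21 CPM at E14.5 and 26.5 to 30.3 at E18.5, and the 5 unipolar brush cell markers to 13.3 to 30.5 and 59.2 to 96.4. The 6 PN markers summed to 1698 to 2230 and 799.6 to 807.9 CPM, and the 9 astrocyte or radial glia markers to 100.8 to 146.4 and 126.3 to 154.7. The sums of the granule progenitor markers were 1975 to 2441 and 1640 to 1735 CPM, of the postmitotic granule neuron markers 2357 to 2802 and 1963 to 2109, and of the neuron markers 11610 to 12250 and 10850 to 11080. Those of other *Atoh1* lineages were 53.4 to 94.1 and 127.5 to 171.7 CPM, of dividing cells 11.4 to 20.3 and 27.5 to 36.7, and of the oligodendrocyte lineage 23.7 to 31.7 and 32.2 to 37.3. The 7 microglia markers, each under 5 CPM at both stages, summed to 0.145 to 0.241 and 0.246 to 0.686 CPM. Their part in the changes was not tested.

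Granule progenitor-like cells, a lineage outside the PN, gave 4 called rises as well. They were 1.15 for *Nfix* (SE 0.099, FDR 6.33e-05), 0.58 for *Nfia* (SE 0.090, FDR 0.0015), 0.54 for *Nfib* (SE 0.084, FDR 0.00147) and 0.45 for *Nfic* (SE 0.099, FDR 0.00719). Of all genes, 19.8% rose and 20.5% fell. Without E14.5 control 2 all 4 stayed called, at 1.09, 0.64, 0.59 and 0.56. With mutant libraries in place of controls, *Nfic* changed by 0.46 and was not called (FDR 0.140). In these cells the 11 granule progenitor markers summed to 3109 to 3557 CPM at E14.5 and 4393 to 4455 at E18.5, and the 7 oligodendrocyte lineage markers to 34.4 to 83.8 and 89.4 to 114.6. The 5 unipolar brush cell markers summed to 405.1 to 563 and 304.6 to 349.1 CPM, and the 6 PN markers to 921.7 to 1048 and 766.4 to 844.9. The postmitotic granule neuron markers summed to 2376 to 2536 and 2581 to 2764 CPM, and the neuron markers to 1383 to 2011 and 1207 to 1349. Their part in the rises was not tested. Whether a member rose more in 1 state than in another was not tested, and *Nfix* had the largest estimate in each of the 4 comparisons.

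Between E18.5 and P5 the PN neurons moved in mixed directions. *Nfib* fell by 1.10 on the log2 scale (SE 0.092, FDR 9.32e-07), from 2815.9, 3058.7 and 3087.9 CPM to 1393.4 and 1279.7. *Nfix* fell by 0.58 (SE 0.095, FDR 0.000195), from 1478.7, 1602.7 and 1404.6 CPM to 921.0 and 986.2, and *Nfia* fell by 0.39 (SE 0.091, FDR 0.00267), from 450.3, 473.1 and 461.7 to 327.2 and 346.1. The groups did not overlap for these 3 members. *Nfic* rose by 0.27 (SE 0.11, FDR 0.0479), from 38.3, 36.8 and 31.5 CPM to 41.5 and 39.8. This last call was lost without E18.5 control 2 (0.31, FDR 0.0527), E18.5 control 3 (0.18, FDR 0.241), P5 library 1 (0.26, FDR 0.140) or P5 library 2 (0.29, FDR 0.105). Of all genes, 28.9% rose and 29.9% fell. Stage, dissection and pooling cannot be told apart here. Over the same samples the 5 unipolar brush cell markers summed to 59.2 to 96.4 CPM at E18.5 and 466.2 to 499.4 at P5, with *Lmx1a*, *Otx2* and *Eomes* under 5 CPM at P5. The 9 astrocyte or radial glia markers summed to 126.3 to 154.7 and 217.1 to 288.4 CPM, and the 7 microglia markers to 0.246 to 0.686 and 7.26 to 16.3. The 6 PN markers summed to 799.6 to 807.9 and 448.3 to 461.5 CPM, and the 5 inhibitory neuron markers to 26.5 to 30.3 and 61.88 to 61.90. The granule progenitor markers summed to 1640 to 1735 and 1003 to 1052 CPM, the postmitotic granule neuron markers to 1963 to 2109 and 1239 to 1335, those of other *Atoh1* lineages to 127.5 to 171.7 and 51.98 to 52.92, and those of dividing cells to 27.5 to 36.7 and 12.6 to 13.2. The neuron markers summed to 10850 to 11080 and 11810 to 12710 CPM, the oligodendrocyte lineage markers to 32.2 to 37.3 and 47.5 to 99.2, the endothelial markers to 2.21 to 3.23 and 3.45 to 3.78, and the red blood cell markers to 1.61 to 10.1 and 11.1 to 96.9. Their part in these changes was not tested.

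**Figure D5:**
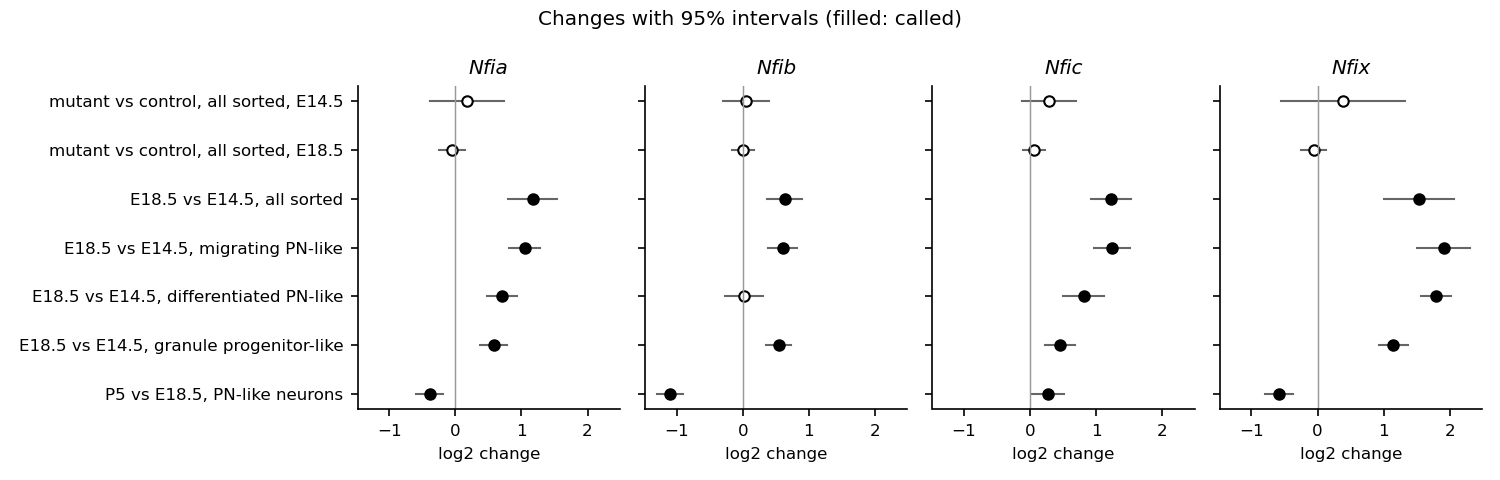
Log2 changes of the 4 members with 95% intervals in 7 comparisons, 1 panel per gene; filled points were called and open points were not. No genotype change was called, all members rose from E14.5 to E18.5 in each comparison but *Nfib* in differentiated PN-like neurons, and 3 fell from E18.5 to P5 in PN-like neurons.

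The genotype comparison asked whether the reduced *Atoh1* function of Atoh1S193A/- embryos changed the family. At E14.5, all sorted mutant cells had 300.7, 194.9 and 309.8 CPM of *Nfia*, 1177.9, 930.3 and 1108.7 of *Nfib*, 50.1, 36.5 and 43.5 of *Nfic*, and 379.3, 149.4 and 336.7 of *Nfix*. Every mutant lay above its littermate for *Nfia*, *Nfic* and *Nfix*, whereas *Nfib* was lower than in the littermate in litter 1, and the genotypes overlapped for each member. The log2 changes from edgeR were 0.18 for *Nfia* (SE 0.24, 95% interval -0.39 to 0.74, FDR 0.799), 0.05 for *Nfib* (SE 0.15, -0.30 to 0.40, FDR 0.921), 0.29 for *Nfic* (SE 0.17, -0.13 to 0.70, FDR 0.549) and 0.39 for *Nfix* (SE 0.39, -0.55 to 1.32, FDR 0.732). Thus 0 of 4 members were called, beside 0.00977% of all genes (1 of 10240). None of the 4 had an unadjusted p under 0.05 in this fit, and DESeq2 called none of them, while it called 165 of all genes higher and 84 lower. With the litter as a replicate block, *Nfic* was called, at 0.29 (SE 0.050, FDR 0.0131), where 17.6% of all genes were called. *Nfia*, *Nfib* and *Nfix* were not, at FDR 0.0835, 0.552 and 0.0582. With the block, *Nfia*, *Nfic* and *Nfix* had an unadjusted p under 0.05, as did 4208 of all 10240 genes. Leaving out both libraries of litter 2, chosen after the data had been seen, gave 0.21, 0.06, 0.30 and 0.46 for *Nfia*, *Nfib*, *Nfic* and *Nfix*, with no call. Controls 1 and 2 were made with Cell Ranger 3.1.0 and all mutants with 5.0.1. In litters 1 and 2 every E14.5 genotype comparison, with or without the block, thus also compares versions, and in litter 1 it also compares sexes. Control 3 alone against the mutants, all of version 5.0.1, gave 0.05, 0.08, 0.32 and 0.18 in the same order. The makeup of the sorted cells moved with genotype, since progenitor-like PN cells were 264 in control and 1168 in mutant libraries and astrocyte or radial glia-like cells 866 and 1933. The latter class holds clusters 10 and 17, of 1421 and 870 cells, with 1 class marker among the leading genes of each. Their *Atoh1* was at 92.8 and 76.7 CPM in controls, so the class name does not establish glia. The part of these cells in the genotype values was not tested.

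At E18.5 the genotypes were closer. Mutants had 581.8, 554.3 and 493.8 CPM of *Nfia*, 1653.1, 1687.0 and 1726.1 of *Nfib*, 95.2, 91.0 and 84.8 of *Nfic*, and 721.8, 599.4 and 629.0 of *Nfix*, all overlapping the controls. The log2 changes were -0.05 for *Nfia*, 0.00 for *Nfib*, 0.05 for *Nfic* and -0.06 for *Nfix*, each with FDR 1.00 and 95% intervals that ran from -0.25 at the lowest to 0.22 at the highest. None of the 4 was called by edgeR or DESeq2, with an unadjusted p under 0.05 for none. Of all 9883 genes edgeR called 0 (0.0%), with 116 at an unadjusted p under 0.05, DESeq2 called 5 higher and 8 lower, and the fit with the replicate block called 0.253%. An interaction term over the 12 embryonic libraries tested the difference between the genotype changes of both stages. Its log2 estimates were -0.21, -0.04, -0.22 and -0.43 for *Nfia*, *Nfib*, *Nfic* and *Nfix*, with FDR of 0.896, 0.971, 0.838 and 0.863, and without litter 2 they were -0.25, -0.05, -0.23 and -0.51, with no call. No member was called, beside 0.0% of 10533 genes in this fit, with 796 at an unadjusted p under 0.05, and 14.6% with the block. DESeq2 called no member and, of all genes, 31 higher and 41 lower. In the block fit *Nfic* had FDR 0.0253 with a change under the limit of 0.25.

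Within PN-like states the members were tested in 4 states per stage, and 0 of 16 tests were called at either stage by edgeR or DESeq2. Of all tests on all genes, 0.0129% were called at E14.5 and 0.0126% at E18.5, or 0.484% and 0.0502% with the replicate block, which called no member either. At E14.5 no member had an unadjusted p under 0.05 without the block, 1 test of *Nfic* did with it, and none was called without litter 2. At E18.5 there were 2 such tests without the block, both of *Nfia* and both lower in the mutant. With the block there were 5, of which 3 were of *Nfia* and 2 of *Nfib*, all lower. Over all genes, 395 of 9605 had such a p in the fit of migrating neuron-like cells without the block and 459 of 10271 in that of ePN3-like cells. This share was not counted with the block. In migrating neuron-like cells *Nfia* was at 1124.4, 977.8 and 1070.0 CPM in controls and at 900.1, 847.9 and 791.0 in mutants, without overlap. The log2 change there was -0.33 (SE 0.084, 95% interval -0.51 to -0.15, FDR 0.869). In ePN3-like cells *Nfia* was at 386.7, 400.2 and 431.6 CPM against 334.7, 357.7 and 347.1, also without overlap, with a log2 change of -0.25 (SE 0.087, FDR 1.00). *Nfia* had a negative estimate in all 4 E18.5 states (median -0.22), as did *Nfib* (median -0.09), while *Nfic* was positive in 3 of 4 and *Nfix* negative in 3 of 4. None of these passes the test over all genes. ePN-like neurons together were at 450.3, 473.1 and 461.7 CPM of *Nfia* in controls and 394.7, 380.3 and 376.3 in mutants, again without overlap, and this sum was not tested. Other markers moved with genotype in the same cells. The 5 inhibitory neuron markers summed to 153.8 to 209.0 CPM in control and 209.4 to 273.5 in mutant migrating cells, and to 26.5 to 30.3 and 46.9 to 51.2 in ePN-like neurons. *Gad2*, 1 of these 5, is also a marker by which the migrating cells were named. *Gad1*, *Slc32a1* and *Slc6a5* were under 5 CPM in the control migrating cells. The 4 markers of other *Atoh1* lineages summed to 89.2 to 176.9 CPM in control and 70.4 to 81.2 in mutant migrating cells. Their part in the lower *Nfia* was not tested.

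Outside the PN, 25 clusters per stage had enough cells in every library. None of 90 member tests was called at E14.5, where 0.00581% of all tests were, and 7 had an unadjusted p under 0.05 (6 with DESeq2 and 19 with the replicate block). Without litter 2, *Nfib* in cluster 24 was called there, at 2.22 (FDR 1.54e-05), in a fit that called 3 of 9965 genes higher and 4 lower. Its levels in litters 1 and 3 were 41.4 and 39.5 CPM in controls and 24.6 and 284.9 in mutants, from 14 to 51 cells each, so the groups overlapped and 1 library was high. At E18.5 none of 100 was called, beside 0.105% of all tests, with 11 at an unadjusted p under 0.05 (9 with DESeq2 and 18 with the replicate block). The share of all tests at such a p was not counted over these clusters. With the replicate block, 1 test was called at E14.5, beside 0.24% of all, and 2 at E18.5, beside 0.632%. These were *Nfix* in the E14.5 cluster 30, inhibitory neuron-like cells, at -1.28 on the log2 scale (FDR 0.0167), and *Nfix* in the E18.5 clusters 18, at 0.33 (FDR 0.0358), and 20, at -0.48 (FDR 0.000226). Cluster 18 was granule progenitor-like and cluster 20 had no name. In cluster 30, of 23 to 94 cells per library, *Nfix* was at 248.7, 116.2 and 158.3 CPM in controls and at 86.02, 70.92 and 50.78 in mutants, without overlap. In cluster 20 it was at 803.2, 714.1 and 711.0 CPM against 683.3, 406.3 and 491.5, also without overlap, and it was called as well without mutant 1, at -0.72 (FDR 0.00769). That fit called 10 of 8686 genes higher and 13 lower.

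Genes known to be tied to NFI were read in the same fits, as 29 genes in 5 lists. Between the embryonic stages, early temporal factors fell: in all sorted cells *Zfhx3* by 3.62, *Zfhx4* by 1.95 and *Onecut2* by 1.10 on the log2 scale, which were 3 of 4 tested genes of that list. Over all lists 4 rose and 6 fell of 19 tested, near the shares over all genes in this fit (26.5% and 25.1%). The other calls were rises of *Insc* (2.44), an orientation factor of the mitotic spindle that NFI is known to regulate, *Etv1* (1.00), *Bbx* (0.61) and *Tcf4* (0.48), and falls of *Ephb1* (-0.81), *Neurod6* (-0.49) and *Cntn2* (-0.45). The granule neuron maturation list therefore went both ways, with *Etv1* higher and *Ephb1* and *Cntn2* lower.

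In migrating PN-like neurons 5 genes rose and 6 fell of 16, beside 21.6% and 20.2% of all genes. The rises were *Ephb1* (2.54), *Mmd2* (2.29), *Sox9* (1.31), *Tcf4* (0.56) and *Pou2f2* (0.54), and the falls *Neurod6* (-1.70), *Zfhx3* (-1.61), *Neurod2* (-0.84), *Onecut2* (-0.75), *Cntn2* (-0.65) and *Ezh2* (-0.40). In differentiated PN-like neurons 5 rose and 6 fell of 17, beside 28.4% and 27.1% of all genes, with *Etv1* (3.06), *Ephb1* (2.58), *Sox9* (1.05), *Mmd2* (0.85) and *Cdh2* (0.30) higher. *Zfhx3* (-2.05), *Neurod6* (-1.77), *Onecut2* (-1.52), *Ezh2* (-1.47), *Zfhx4* (-1.44) and *Neurod2* (-0.97) were lower. *Neurod2* and *Neurod6*, listed as late factors, thus fell in both states, while *Ephb1*, an ephrin receptor of the granule neuron list, rose in both.

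Granule progenitor-like cells had 5 rises and 9 falls of 21, beside 19.8% and 20.5% of all genes. *Sox9* (1.80), which acts with NFIA in gliogenesis, *Hes1* (1.21), *Insc* (1.06), *Onecut2* (0.50) and *Bbx* (0.44) rose. *Zfhx3* (-1.79), *Ephb1* (-1.44), *Fabp7* (-1.18), *Neurod2* (-1.07), *Neurod6* (-0.88), *Apcdd1* (-0.78), *Cntn2* (-0.77), *Ezh2* (-0.50) and *Zfhx4* (-0.32) fell. *Ephb1* thus had opposite signs in this lineage and in PN-like neurons. From E18.5 to P5, PN-like neurons had 3 rises and 9 falls of 16, beside 28.9% and 29.9% of all genes. *Aqp4* (4.70), *Fabp7* (1.60) and *Sox9* (0.55) rose, beside the higher astrocyte marker sum given above, which contains some of these genes. *Ezh2* (-2.70), *Pou2f2* (-1.34), *Onecut2* (-1.28), *Mmd2* (-1.11), *Cdh2* (-0.97), *Cntn2* (-0.92), *Neurod2* (-0.86), *Slc1a3* (-0.46) and *Bbx* (-0.37) fell. The glial list thus went both ways, with 2 rises and 2 falls, and *Slc1a3*, also an astrocyte marker, was lower. No listed gene was called by edgeR between the genotypes in all sorted cells, with 18 tested at each stage and 4 at an unadjusted p under 0.05 at E14.5 and 3 at E18.5. Within PN-like states and other clusters none was called at E14.5. In E18.5 PN-like states 1 of 58 tests was called, a fall in the glial list, beside 0.0126% of tests on all genes. The other E18.5 clusters had 3 rises and 5 falls of 401 tests, beside 0.105%.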

How the data were processed

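Single-cell RNA libraries (10x 3′ v3.1) of sorted TdTomato-positive hindbrain cells were read as UMI counts per gene and barcode, which the authors had made with Cell Ranger against mm10 with the WPRE reporter added; the deposited counts are not normalized. The methods name version 5.0.1, and the file headers give 3.1.0 for 2 libraries. Cells with at least 1000 genes and under 5% mitochondrial UMIs were kept, and the 7.5% with the highest Scrublet scores in each library were removed as likely doublets. Clustering was done per stage in scanpy 1.11.5 (2000 variable genes, 30 components, 15 neighbours, Leiden resolution 1.0), with the NFI members, the reporter and sex-linked genes left out. Clusters were named from markers, with naming limits set after cluster means had been seen, and a rebuilt name may differ from that of the study. Units with under 10 cells in a library were not summed for it.

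UMIs were summed per library and tested with edgeR 4.0.16 (TMM, quasi-likelihood, R 4.3.3) after dropping genes seen in under 10% of the cells of every group. P-values were adjusted by the Benjamini-Hochberg method over all genes of each fit. Each state or cluster was fitted alone, with no adjustment across states or clusters. A call needed FDR below 0.05 with a log2 change above 0.25 in size. DESeq2 1.42.0 was an alternative. Same-numbered embryos are littermates: their deviations from the group mean correlated at 0.454 to 0.646 at E14.5 and 0.464 to 0.762 at E18.5, so fits with the litter as a block are given where a call changed. Scripts were tested on simulated data. The text names the 4 members, every gene of 5 lists (29 genes) that was called between stages, and the 3 genes nearest to each member across clusters. Calls of listed genes between genotypes within states or clusters are given as counts only. The members and lists were chosen with earlier results of these data known.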

Additional observations from a re-analysis of the deposited data

How the results depend on the processing

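No rise of *Nfia*, *Nfib* or *Nfix* from E14.5 to E18.5, and none of their falls to P5, lost its call under any alternative run. Of the alternatives that kept all samples, DESeq2 gave the same direction and side of the threshold for 40 of 41 results and a mitochondrial limit of 10% for 40 of 41. Likely doublets kept gave 0.39 for *Nfib* in differentiated neurons (called), 0.24 for *Nfic* at P5 (not called) and -0.0080 for *Nfib* between E18.5 genotypes, whose sign also turned with DESeq2, at -0.0028. Without the low-count filter, *Nfib* in differentiated neurons was at -0.0022, 16 listed genes were called between stages in all sorted cells in place of 10, and 2 member tests were called in the other clusters at E14.5 and 1 at E18.5. With mutant libraries in place of controls, *Nfic* in granule progenitors was at 0.46 without a call, and 7 listed genes were called in differentiated neurons in place of 11. The wider mitochondrial limit gave 1 call in the other clusters at E18.5, *Nfix* in cluster 14 (-0.36), and leaving out litter 2 gave 1 at E14.5, *Nfib* in cluster 24 (2.22). The cause of these changes was not tested.

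With the replicate block, which pairs littermates, *Nfic* at E14.5 was called (0.29), as were 1 test in the other clusters at E14.5 and 2 at E18.5, and no other genotype call changed. Thinning each cell to 5000 UMIs moved the E18.5 PN-like level of *Nfia* to 667.3 CPM and of *Nfib* to 3763, the P5 levels in all sorted cells to 363.2, 1081, 49.4 and 781.2 for *Nfia*, *Nfib*, *Nfic* and *Nfix*, and those in P5 PN-like cells to 353.5 for *Nfia* and 37.8 for *Nfic*. Cells with under 5000 UMIs were left out of these values and each remaining cell counted equally, so the moves also hold these changes.

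Leaving out 1 library at a time gave, between E14.5 genotypes, 0.016 to 0.37 for *Nfia*, -0.039 to 0.17 for *Nfib*, 0.16 to 0.43 for *Nfic* and 0.14 to 0.70 for *Nfix*. Between E18.5 genotypes the ranges were -0.088 to 0.018, -0.040 to 0.028, -0.00089 to 0.10 and -0.13 to -0.021, and for the difference between stages -0.41 to -0.051, -0.15 to 0.052, -0.35 to -0.11 and -0.75 to -0.19. *Nfib* in differentiated neurons ran from -0.060 to 0.18 and *Nfic* at P5 from 0.18 to 0.32. The other clusters at E18.5 gave 0 to 1 calls.

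There were 3 libraries per group, and 2 at P5, and a missed threshold does not show that genotypes were alike. Values of *Nfic* rest on few UMIs per cell.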
